A study of Mus musculus with 42 samples.

Results

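Chemokines are small secreted proteins that draw leukocytes along a gradient, and 6 chemokine genes that natural killer (NK) cells can express were followed here: Ccl1, Ccl3, Ccl4, Ccl5, Ccl9 and Xcl1. They were taken from a list of gene names, drawn up when earlier results of these data, among them different time courses of single genes with and without IL-21, were known. They are 6 of the 54353 genes shared by the bulk RNA sequencing (RNA-Seq) tables and 6 of the 35237 genes of the single-cell matrix. The cells were tissue-resident NK cells (trNK) of the uterus of wild-type C57BL/6 mice, which expand in the decidua early in pregnancy. Bulk RNA-Seq covered 34 libraries in 17 groups of 2, from 4 experiments.

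In the gestation experiment, trNK were sorted as CD45+NK1.1+NKp46+CD49a+CXCR6- cells from uteri of virgin mice and of mice at gestational day (gd) 6.5 or gd8.5. In the subset experiment, trNK at gd8.5 were separated by surface CD55 and 4-1BB into trNK-V (low for both), trNK-D (intermediate) and trNK-T (high). In the inhibitor culture, trNK-V from gd6.5 mice were kept for 72 h in 1 of 3 ways: lacking IL-21, given 20 ng/mL IL-21, or given IL-21 together with Stattic, an inhibitor of STAT3, at 1 μM (iSTAT3). By the methods of the study, its medium also held 10 ng/mL IL-15. In the time course, gd6.5 trNK (trNK-V by the methods of the study) were cultured in IL-15, at 10 ng/ml by the sample labels although the protocol text names another dose, and collected at 0, 6, 24 and 72 h with or without 20 ng/ml IL-21. IL-21 is a cytokine whose receptor signals mainly through STAT3. No label ties a library to an animal or says that the 2 libraries of a group came from separate animals or cultures, so every p-value measures the spread between libraries, which may be technical.

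NK cells are a known source of several of these chemokines. Ccl3 and Ccl4 (the macrophage inflammatory proteins 1α and 1β) and Ccl5 (RANTES) draw macrophages, activated T cells and NK cells, and Ccl3, Ccl5 and Ccl9 act on the receptor Ccr1. Xcl1 (lymphotactin) is a ligand of Xcr1, the receptor of cross-presenting dendritic cells, and Ccl1 is a ligand of Ccr8. In the NK lineage Ccl5 mRNA is typically abundant in mature cells at rest, whereas Ccl3, Ccl4 and Xcl1 are quickly induced on activation.

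By the mm10 annotation, 5 of the 6 genes lie on chromosome 11: Ccl1 at chr11:82176657-82305690, Ccl5 at chr11:83525778-83530518, Ccl9 at chr11:83572919-83578636 and Ccl3 at chr11:83647844-83649355, all on the minus strand, and Ccl4 at chr11:83662584-83664683 on the plus strand. Xcl1 lies apart at chr1:164931644-164935527 on the minus strand, where it overlaps the plus-strand gene Gm20743, so that without stranded counting its reads cannot be told from those of Gm20743. Promoter windows of 300 bases (250 before to 50 after the annotated start) from RefSeq on GRCm38.p6 matched 4 of the 6 genes, which did not include Ccl4 and Ccl5. The windows of Ccl1, Ccl3 and Xcl1 are printed because these genes moved in different directions between trNK subsets. Each is written 5′ to 3′ on the minus strand, and capitals mark matches to the letters searched: TTCNNNGAA for STAT factors, GGGA and TTCC 2 bases apart for NF-kB, TGANTCA for AP-1 and TCACACCT for T-box factors, on both strands.
Ccl1 (chr11:82179763-82180062): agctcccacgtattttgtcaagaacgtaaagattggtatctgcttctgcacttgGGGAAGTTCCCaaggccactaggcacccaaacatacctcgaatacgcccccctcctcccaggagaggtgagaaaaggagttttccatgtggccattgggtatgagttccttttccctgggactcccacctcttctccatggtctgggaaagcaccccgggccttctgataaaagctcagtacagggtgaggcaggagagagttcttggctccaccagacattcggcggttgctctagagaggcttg
Ccl3 (chr11:83649329-83649628): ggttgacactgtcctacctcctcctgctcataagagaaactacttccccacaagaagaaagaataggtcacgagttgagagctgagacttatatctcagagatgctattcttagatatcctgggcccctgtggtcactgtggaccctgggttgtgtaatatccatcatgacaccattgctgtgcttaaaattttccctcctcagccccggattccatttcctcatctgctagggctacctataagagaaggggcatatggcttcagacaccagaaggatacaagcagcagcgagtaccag
Xcl1 (chr1:164935473-164935772): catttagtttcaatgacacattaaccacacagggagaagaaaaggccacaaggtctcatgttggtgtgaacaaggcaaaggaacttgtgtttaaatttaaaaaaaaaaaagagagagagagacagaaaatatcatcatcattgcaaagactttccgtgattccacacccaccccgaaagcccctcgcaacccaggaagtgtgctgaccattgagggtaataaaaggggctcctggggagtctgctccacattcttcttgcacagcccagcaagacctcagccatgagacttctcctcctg
The capitals in the Ccl1 window are a pair of overlapping NF-kB matches, at bases 55 to 64 and 56 to 65 of the window, between 196 and 186 bases before the start. The window of Ccl9 (chr11:83578587-83578886, minus strand) held 1 AP-1 match, at bases 198 to 204. No letters searched were found in the windows of Ccl3 and Xcl1, and the STAT letters were in none of the 4. Over all 32851 promoter windows, 8.3% held the STAT letters, 1.47% the NF-kB letters, 7.81% the AP-1 letters and 1.28% the T-box letters. These matches describe the sequence and do not show binding.

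Library totals ranged from 11862089 to 29537298 counts in the gestation, subset and inhibitor experiments and from 28541369 to 66468883 in the time course. Levels are given as RPKM (reads per kilobase of exon, scaled to the library total), which allow comparison between genes, although the merged exons of Ccl1 span a long annotated model and so its RPKM is low for its reads. Ncr1, which encodes NKp46, was between 46.8 and 1030 RPKM in all 34 libraries. Some libraries stood apart from their partners: the 2 virgin libraries differed by more than 2-fold in 466 of 4504 genes, where the pairs of the gd6.5 and gd8.5 groups did in 86 and 64, and Tnfrsf9 (4-1BB) was 123 RPKM in virgin replicate 1 and 751 in replicate 2. In the time course, 1003 and 1045 of 3503 genes differed by more than 2-fold between the 72 h libraries without and with IL-21, and 44 to 561 genes did at earlier times. The summed level of 6 B cell markers was 250 RPKM in trNK-D replicate 1 but 21341 in trNK-D replicate 2, and 172 to 317 in the other libraries of that experiment. In bulk RNA, fewer cells of a kind and less RNA per cell cannot be told apart.

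Changes were tested with edgeR's quasi-likelihood test across all genes above 10 RPKM in both libraries of at least 1 group of an experiment. A gene was called at a Benjamini-Hochberg adjusted p under 0.05 and a fold change above 2. Fold changes are given as log2 differences with their standard error (SE). The filter let 5 members through in the gestation and subset experiments (without Ccl9), 5 in the inhibitor culture (without Ccl1) and all 6 in the time course. Ccl1 passed only through the gd8.5 libraries in the gestation experiment and only through the trNK-T libraries among the subsets, and Ccl9 passed only through the libraries with IL-21 in the inhibitor culture and only through those of 0 h without IL-21 in the time course. Where such a gene is set against its high group, its values are a description and nothing is read from its test.

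Across gestation, Ccl5 was lower at gd6.5 than in virgin trNK, and no other member was called by edgeR, while DESeq2 also called Ccl3 and Xcl1. The virgin libraries held Ccl5 at 1618 and 1844 RPKM, those of gd6.5 at 281 and 578, and those of gd8.5 at 1052 and 842. The gd6.5 libraries lay below all others, with a log2 difference from virgin of -2.10 (SE 0.35, adjusted p = 0.0305, edgeR). This was 1 of 5 members called, where 6.17% of all 4504 genes were called in either direction. DESeq2 called 3 of 5, all lower, and 10.3% of all genes. The call was lost with filterByExpr, with a replicate block and where the fit held only the 2 groups. It held without either virgin library but was lost when any of the gd6.5 or gd8.5 libraries was left out, with log2 differences between -2.73 and -1.69 and adjusted p up to 0.191. Marker sums of other cells moved in both directions at gd6.5 against virgin. Among those higher, 5 gamma delta T cell markers summed to 27.9 to 33.5 RPKM against 12.7 to 20.3, and 3 endothelial markers to 36.4 to 44.4 against 13.2 to 29.2. The sums of 8 markers of conventional NK cells overlapped, at 668 to 1312 against 977 to 1255. T cell and macrophage markers were lower. The sum of 8 T cell markers was 1634 to 1651 RPKM in virgin trNK, 1061 to 1195 at gd6.5 and 1497 to 1507 at gd8.5, with 3 of the 8 at 0 at most, and that of 8 macrophage markers was 29.5 to 30.2, 12.0 to 14.1 and 18.4 to 28.0 RPKM. The part of such cells in the difference of Ccl5 was not tested.

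Xcl1 stood at 3590 and 1086 RPKM in virgin trNK, which compares with 620.5 and 804.3 for gd6.5 and 1160 and 918 for gd8.5. Both gd6.5 libraries lay below both virgin libraries, but the virgin pair was itself widely spread, and the log2 difference of -1.80 had an adjusted p of 0.0758 (edgeR). Ccl3 measured 37.6 and 180 RPKM in virgin trNK, 16.8 and 15.2 for gd6.5, and 43.9 and 77.5 for gd8.5, with a log2 difference of -2.85 at gd6.5 (adjusted p = 0.057, edgeR). Neither was called by edgeR, and both were by DESeq2 and with no gene filter.

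Ccl4 values were 77 and 2026 RPKM in the virgin libraries, 415 and 516 for gd6.5, and 501 and 1549 for gd8.5. The virgin pair enclosed every other value. Ccl1 was listed at 0 in virgin replicate 1 and at 119 RPKM in replicate 2, at 0.834 and 0.152 in the gd6.5 libraries, and at 64.1 and 137 in those of gd8.5. The direction of Ccl1 at gd6.5 against virgin therefore rested on virgin replicate 2: the log2 difference was -6.95 with it (adjusted p = 0.13, edgeR) and 7.57 without it. Ccl9 was at most 1.55 RPKM in these 6 libraries, and was listed at 0 in both gd6.5 libraries.

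Between gd8.5 and virgin, 0 of 5 members were called by edgeR, with 0 at an unadjusted p under 0.05 and the same fold, and 0 by DESeq2, where 0.422% of all genes were called by edgeR and 3.64% by DESeq2. Between gd8.5 and gd6.5, 0 of 5 were called by edgeR, as were 0% of all genes (262 genes at the unadjusted threshold), with 3 members at an unadjusted p under 0.05 and 2 called by DESeq2 (Ccl3 and Ccl5, both higher at gd8.5), where DESeq2 called 4.91% of all genes. The other of the 3 was Ccl1, which was tested only through its high gd8.5 libraries. Of the other lists, 2 of 3 tested activation-induced cytokines were lower at gd6.5 than in virgin trNK, the growth factor Csf2 by -4.69 (adjusted p = 0.0311, edgeR) and interferon gamma (Ifng) by -2.28 (adjusted p = 0.0302) on the log2 scale. Of 11 tested immediate early genes, Dusp2 and Jund were lower at gd6.5 (Jund passed the filter only through the virgin libraries), and Dusp2 and Nr4a1 at gd8.5. The median log2 difference of the 5 members at gd6.5 was -2.10, that of all genes -0.02.

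The subsets gave the widest separation among sorted cells. Xcl1, Ccl3 and Ccl4 were lower in trNK-T than in trNK-V, and Ccl1, which passed the filter only through trNK-T, had higher values there. Tnfrsf9 and Cd55 followed the gates, at 200 and 138 RPKM (Tnfrsf9) and 6.44 and 19.4 RPKM (Cd55) in trNK-V against 1172 and 1357 RPKM and 179 and 214 RPKM in trNK-T. Of 5 members tested between trNK-T and trNK-V, 4 were called, where 21.2% of all 4683 genes were. The 3 lower members stand beside 13.1% of all genes called lower. The 1 higher, Ccl1, stands beside 8.05% called higher, and nothing is read from its call, since its high group decided that it was tested. Markers of conventional NK cells (cNK) moved with the lower members: the summed level of 8 markers, among them Itga2 and S1pr5, was 1544 to 2470 RPKM in trNK-V, 958 to 959 in trNK-D and 353 to 398 in trNK-T, with at most 0, 1 and 2 of the 8 listed at 0 in a library. Itga2 was a small part of these sums, at 3.74 and 5.09, 3.20 and 2.30, and 0.819 and 0.886 RPKM. The cNK list also holds Eomes, which trNK express. By the gates of the study trNK are CD49a+ and cNK CD49a-. The part of cNK in the differences of Xcl1, Ccl3, Ccl4 and Ccl5 was not tested. Sums of 6 markers of innate lymphoid cells type 1 (ILC1) and of 8 T cell markers were lower in trNK-T too, at 0.228 to 0.399 RPKM against 14.4 to 50.1 in trNK-V (ILC1) and 1048 to 1138 against 1776 to 1838 (T cells). Cd3e was at 0 and 1.26 RPKM in trNK-V and at 0 in both trNK-T libraries, so other genes carried the T cell sum. The trNK sort of the study excluded CD3+, CD5+ and CXCR6+ cells. The part of ILC1 and T cells was not tested either.

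Xcl1 was at 1732 and 1699 RPKM in trNK-V, 1080 and 903 in trNK-D, and 253 and 218 in trNK-T. The groups fell in steps without overlap and with close replicates. The log2 difference was -2.86 between trNK-T and trNK-V (SE 0.17, adjusted p = 0.000571, edgeR) and -2.08 between trNK-T and trNK-D (SE 0.17, adjusted p = 0.00516), while the smaller step of -0.78 between trNK-D and trNK-V was not called (adjusted p = 0.104). The call between trNK-T and trNK-V held under every setting and every library left out. The call against trNK-D was lost without trNK-T replicate 2 (adjusted p up to 0.0822).

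Ccl3 was at 118 and 267 RPKM in trNK-V, 52.6 and 10.9 in trNK-D, and 0 and 3.85 in trNK-T. Both trNK-T libraries lay below all others, with a log2 difference of -6.72 from trNK-V (SE 1.43, adjusted p = 0.0158, edgeR). Since 1 trNK-T library is at 0, the size is loosely held, from -14.29 to -5.65 over the libraries left out. Ccl4 was at 984 and 2181 RPKM in trNK-V, 1234 and 323 in trNK-D, and 188 and 99.1 in trNK-T. The trNK-D pair overlapped trNK-V, and trNK-T lay below both, by -3.46 from trNK-V (SE 0.72, adjusted p = 0.0151). Both calls were lost without trNK-V replicate 2, and that of Ccl4 also without trNK-T replicate 2 (adjusted p up to 0.0792 for Ccl3 and 0.103 for Ccl4).

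Ccl5 was at 2531 and 4319 RPKM in trNK-V, 1976 and 490 in trNK-D, and 404 and 9.66 in trNK-T. Every trNK-T value was below every other value, but the trNK-T libraries were far apart, and the log2 difference of -4.05 from trNK-V was not called (SE 1.5, adjusted p = 0.0757, edgeR). It was called with DESeq2, with limma-voom, with a replicate block and with no gene filter, and without trNK-T replicate 1 (-8.48), and was not called with RLE factors, filterByExpr or the 2 groups alone.

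Ccl1 ran the other way. It was listed at 0 in both trNK-V libraries, and was at 7.01 and 50.8 RPKM in trNK-D and 110 and 28.3 in trNK-T. Set against a floor of 3 counts per library in trNK-V, its mean was at least 800-fold higher in trNK-T and at least 336-fold higher in trNK-D. Single libraries lay on either side of these means, 3.87-fold apart in trNK-T and 7.25-fold apart in trNK-D. These are given as a description, with no test, because Ccl1 entered the test only through trNK-T. Ccl1 in trNK-D and trNK-T overlapped. In the time course, whose cells were gd6.5 trNK-V by the methods of the study, Ccl1 was at 230 and 123 RPKM at 0 h. The gap between these experiments was not tested.

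Ccl9 was at 6.21 and 0.912 RPKM in trNK-V, 11.8 and 3.87 in trNK-D, and listed at 0 in both trNK-T libraries. Against the same floor in trNK-T, its mean was at least 48-fold higher in trNK-V and at least 105-fold higher in trNK-D, without a test. The libraries behind these means were 6.81-fold and 3.04-fold apart. Macrophage markers were lowest in trNK-T too. The summed level of 8 markers was 56.3 to 385 RPKM in trNK-V, 277 to 391 in trNK-D and 17.0 to 20.0 in trNK-T. Lyz2 was at 19.3 and 269, 212 and 303, and 1.97 and 4.61 RPKM in the same order. Within the trNK-V and trNK-D pairs, however, the library with more Ccl9 had less Lyz2. Marker genes of dendritic cells were also lower in trNK-T, at 82.9 to 313 RPKM summed over 5 genes in trNK-V and trNK-D and at most 2.96 in trNK-T. The part of these cells in the differences of Ccl3, Ccl4 and Ccl9 was not tested.

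**Figure D1:**
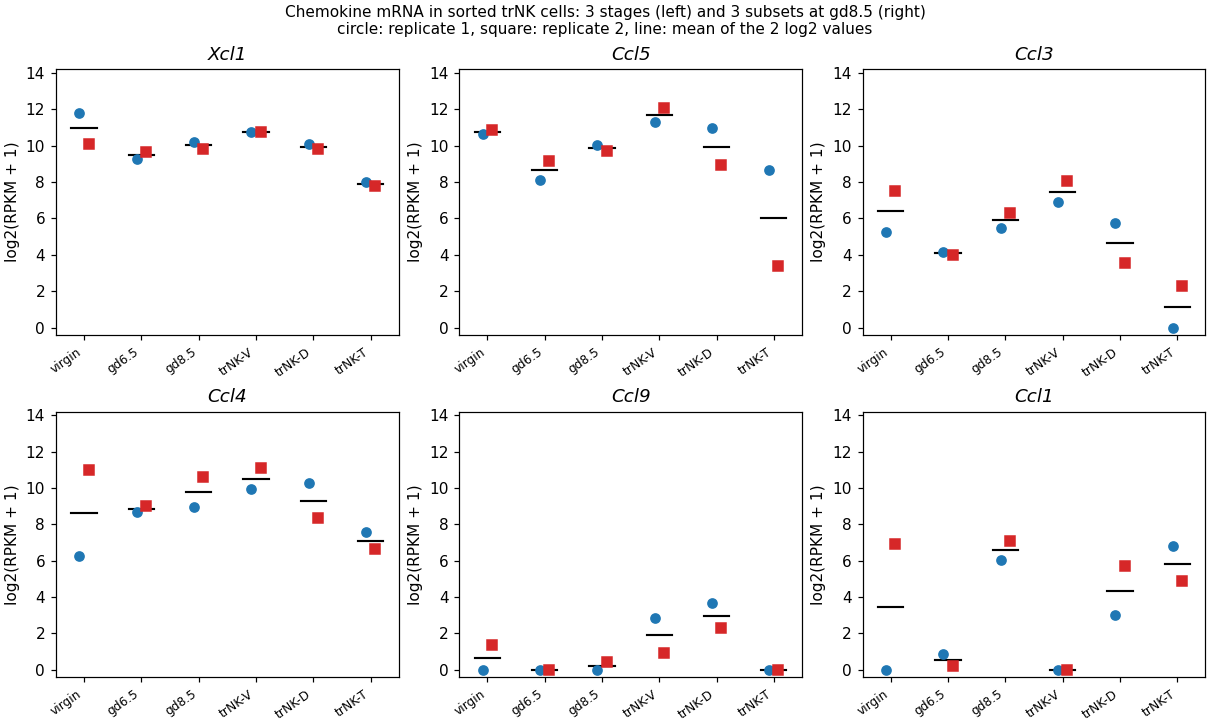
Levels of the 6 chemokine genes in sorted trNK, as log2(RPKM + 1), for each of the 2 libraries of a group (points) across gestation and across the 3 sorted subsets. Xcl1 fell from 1732 and 1699 RPKM in trNK-V to 253 and 218 in trNK-T with close replicates, while Ccl1 was at 0 in both trNK-V libraries and at 110 and 28.3 RPKM in trNK-T.

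Between trNK-D and trNK-V, 0 of 5 members were called by edgeR, with 1 at an unadjusted p under 0.05 and a fold above 2, and 1 by DESeq2, where 0.32% of all genes were called by edgeR and 3.99% by DESeq2. That member was Ccl1, which was tested only through trNK-T. Between trNK-T and trNK-D, 1 of 5 (Xcl1) was called, where 1.75% were. Of 4 tested chemokine receptors, Cxcr3, the receptor of the interferon-induced CXC chemokines, was lower in trNK-T than in trNK-V by -4.86 on the log2 scale and Ccr2, the receptor of Ccl2, by -1.12 (adjusted p = 0.000571 and 0.0201, edgeR). The tested cytokines Ifng and Ltb (lymphotoxin beta) were both lower, by -1.76 and -6.63, where Ltb passed the filter only through trNK-V. Of 12 tested immediate early genes, which mark recent stimulation or stress of the cells, 7 were lower (Egr1, Fos, Ier2, Jun, Junb, Nr4a1 and Zfp36). Ier3, listed at 0 in trNK-V, had higher values in trNK-T but passed the filter only there. The single other chemokine ligand tested of 32 was not called. The median log2 difference between trNK-T and trNK-V was -3.46 for the 5 members that passed the filter, -2.46 for the immediate early genes and -0.01 for all genes.

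In the inhibitor culture, Ccl3, Ccl4, Ccl5 and Ccl9 had higher values in both libraries with IL-21 than in either without it, but none of these differences was called by edgeR. Ccl3 was at 5.03 and 1.65 RPKM without IL-21, at 987 and 206 with it, and at 10.3 and 46.0 when iSTAT3 was added. The groups did not overlap, and the inhibitor libraries lay between the others. The log2 difference with IL-21 was 7.70 (SE 1.21, adjusted p = 0.0556, edgeR), and iSTAT3 set against IL-21 alone gave -4.34 (SE 1.03, adjusted p = 0.075).

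Ccl4 was at 30.9 and 12.3 RPKM without IL-21, at 7694 and 3559 with it, and at 125 and 3198 when iSTAT3 was added. The inhibitor pair differed by far more than the other pairs, replicate 2 lying close to the IL-21 libraries. The log2 difference with IL-21 was 8.24 (SE 1.57, adjusted p = 0.0863, edgeR). With IL-21 and iSTAT3 against no IL-21 it was 6.57 (SE 1.46, adjusted p = 0.0452), the only call among the members in this experiment. That call was lost under limma-voom, filterByExpr or a replicate block and without either library lacking IL-21 or iSTAT3 replicate 2, with log2 differences from 2.73 to 7.53 over the libraries left out.

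Ccl9 was at 0 and 0.487 RPKM without IL-21, at 25.5 and 65.4 with it, and at 2.16 and 6.5 when iSTAT3 was added. The order of the groups was that of Ccl3, which is a description, since Ccl9 passed the filter only through the libraries with IL-21. Ccl5 was at 1078 and 553 RPKM, 2067 and 1916, and 805.1 and 842.5 in the same order. It too was highest with IL-21, by 1.48 on the log2 scale (SE 0.36, adjusted p = 0.15), and the inhibitor libraries lay between those without IL-21.

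Xcl1 was at 1203 and 317 RPKM without IL-21, at 697 and 91.9 with it, and at 30.0 and 283 with iSTAT3. The IL-21 pair overlapped both other groups, while both iSTAT3 libraries lay below both without IL-21. That last difference, -1.98 on the log2 scale, was not called (adjusted p = 0.387, edgeR), but was with no gene filter. Ccl1 was at most 0.858 RPKM in any of the 6 libraries and was listed at 0 in both with iSTAT3. C1qa, C1qc, Csf1r, Adgre1 and Lyz2, which define macrophages, were listed at 0 in all 6 libraries of this culture, and the summed level of the 8 macrophage markers was 18.9 to 20.7 RPKM without IL-21, 22.2 to 28.9 with IL-21 and 19.9 to 21.1 with iSTAT3, carried mostly by Cd68. Other sums moved, in both directions. In the same order they were 2457 to 2735, 1598 to 2369 and 1928 to 2311 RPKM for the 8 cNK markers. For 6 neutrophil and monocyte markers they were 351 to 418, 222 to 254 and 194 to 198. For 10 markers of later trNK stages they were 3590 to 5179, 48831 to 53059 and 14747 to 16550. The part of any of these in the levels of the members was not tested.

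**Figure D2:**
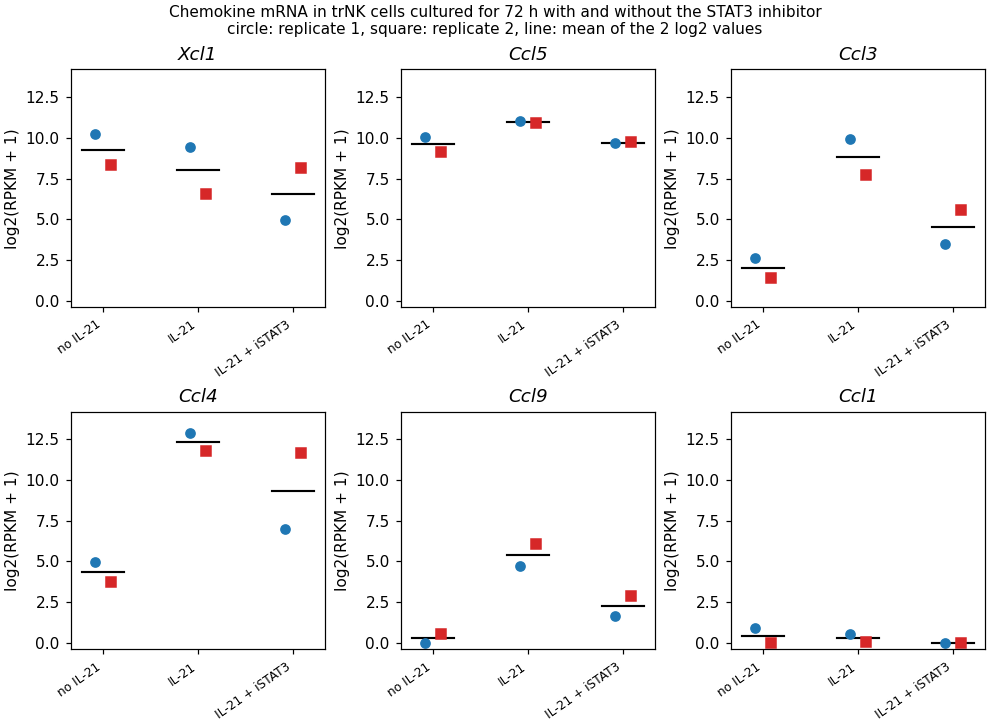
Levels of the 6 chemokine genes after 72 h in the 3 culture conditions of the inhibitor experiment (no IL-21, IL-21, IL-21 plus iSTAT3), as log2(RPKM + 1), with 1 point per library. Ccl3 was at 5.03 and 1.65 RPKM without IL-21, 987 and 206 with it, and 10.3 and 46.0 with the inhibitor, whereas the Xcl1 pair with IL-21 overlapped both other groups.

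Between IL-21 and no IL-21, 0 of 5 members were called by edgeR, with 4 at an unadjusted p under 0.05 and a fold above 2, and 4 by DESeq2. These were Ccl3, Ccl4, Ccl5 and Ccl9, of which Ccl9 was tested only through its high group. Over all 4158 genes 0.289% were called by edgeR and 3.9% by DESeq2. Between iSTAT3 and IL-21 alone, 0 of 5 were called by edgeR, with 3 at the unadjusted threshold (Ccl3, Ccl5 and Ccl9, the last tested only through its high group) and 2 by DESeq2, where 2.96% of all genes were called by edgeR and 10.7% by DESeq2. With iSTAT3 against no IL-21, 1 of 5 was called, where 4.74% were. Ifng was higher with IL-21 by 4.58 on the log2 scale (adjusted p = 0.0136, edgeR). Bcl3, a STAT3 target, was at 4.13 and 2.90 RPKM without IL-21 and 24.3 and 36.4 with it, and passed the filter only through the latter. With iSTAT3 as well, Ifng was still higher than without IL-21, by 4.11 (adjusted p = 0.00584), while Ltb was lower, by -1.92 (adjusted p = 0.028). Of the immediate early genes, Ier3 was higher by 2.55 in that comparison. Dusp2, lower by -3.61, and Atf3, higher by 6.03, passed the filter only through the group where each is high.

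In the time course Ccl5 was lower with IL-21 than without at 24 h and higher with it at 72 h. Different courses of single members in the 2 arms were known when the genes were listed, so the values of Ccl5 that follow are a description, with no test, and the others are not independent support for such a difference. Without IL-21, Ccl5 was at 592 and 652 RPKM at 0 h, 511 and 532 at 6 h, 946 and 1013 at 24 h, and 2720 and 3478 at 72 h. With IL-21 it was at 926 and 703, 536 and 618, 340 and 315, and 9576 and 13974 RPKM at the same times. At 24 h both IL-21 libraries lay below both libraries without it, and at 72 h both lay above.

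The log2 difference of Ccl5 with IL-21 was -1.68 at 24 h (SE 0.31) and 1.89 at 72 h (SE 0.31), with 0.48 and 0.11 at 0 h and 6 h. Between 24 and 72 h the log2 difference was 2.03 without IL-21 (SE 0.32) and 5.6 with it (SE 0.37). The values thus went up in both arms, and the 2 steps differed by 3.57 (SE 0.44), or 2.94 to 3.97 over the libraries left out, against a median of 0.16 over all genes. By the rule for calls 1 of 6 members passed for that difference, beside 4.22% of all 3503 genes, and nothing is read from it. The summed level of the 8 cNK markers also rose from 24 to 72 h in both arms and was lower with IL-21 at 24 h. At 72 h, where Ccl5 was higher with IL-21, the cNK sums of the arms overlapped. The sum was 3225 to 3417 RPKM at 24 h and 4953 to 5857 at 72 h without IL-21, and 1871 to 2225 and 4367 to 5718 with it, with at most 2 or 3 of the 8 listed at 0 in a library. Genes other than Itga2 carried this sum. Itga2 was at 0.264 and 0.262 RPKM at 24 h and 3.50 and 0.205 at 72 h without IL-21. With IL-21 it was at 0.852 and 0.504, then 0.705 and 2.09. The summed level of 5 genes of dividing cells fell over the same interval, from 290 to 307 RPKM down to 0.549 to 8.54 without IL-21 and from 311 to 351 down to 24.1 to 45.1 with it. ILC1 markers, summed over 6 genes, were at 19.5 to 47.7 RPKM at 24 h and 7.78 to 97.4 at 72 h without IL-21, and at 22.4 to 28.7 and 99.8 to 124 with it. The part of any of these in the levels of Ccl5 was not tested.

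Between 6 and 24 h the direction of Ccl5 differed between the arms, at 1.04 without IL-21 and -0.75 with it. Neither change was called, nor was the difference between them, -1.79 (SE 0.43). For that difference 0 of 6 members were called by edgeR, with 2 at an unadjusted p under 0.05 and a fold above 2, and 0 by DESeq2. Of all genes 0% were called (41 at the unadjusted threshold). From 6 to 72 h the changes differed by 1.78 (SE 0.43), where 1 of 6 members and 4.17% of all genes passed the rule for calls. Ccl5 no longer passed it with RLE size factors, with filterByExpr and in 11 of 16 fits that left out a library.

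Over the fits that left out a library, the difference of Ccl5 with IL-21 was between -1.72 and -1.61 at 24 h and between 1.26 and 2.29 at 72 h.

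Xcl1 was the highest of the 6 members in all time course libraries other than those with IL-21 at 6 h, where Ccl4 was higher, and at 72 h, where Ccl5 was, and its lowest values were at 6 h with IL-21. Without IL-21 it was at 7683 and 8889 RPKM at 0 h, 5402 and 6547 at 6 h, 5563 and 5889 at 24 h, and 9673 and 6296 at 72 h. With IL-21 it was at 10492 and 7587, 2914 and 2301, 5577 and 5756, and 5511 and 4392 RPKM. The 6 h libraries with IL-21 lay below all 14 others.

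At 6 h, Xcl1 was lower with IL-21 by -1.23 on the log2 scale (SE 0.24, adjusted p = 0.0265, edgeR), and between 0 and 6 h with IL-21 it fell by 1.98 (SE 0.25, adjusted p = 0.00383). Since different courses of single members in the arms were known when the genes were listed, these tests are not independent support for such a difference. At 24 h the arms differed by -0.12 and at 72 h by -0.75 (adjusted p = 0.0762), neither called. The return with IL-21 from 6 to 24 h, 1.19, was not called (adjusted p = 0.131). The call at 6 h was lost with filterByExpr and without any of the 8 libraries at 6 and 24 h (-1.46 to -1.05, adjusted p up to 0.303). The fall from 0 h was lost without either 6 h library with IL-21 (adjusted p up to 0.0646). Marker sums moved in both directions with IL-21 at 6 h. Among those lower, the summed level was 1750 to 2029 RPKM against 2230 to 2452 for the 8 cNK markers, 1070 to 1216 against 1425 to 1504 for the 8 T cell markers, 21.9 to 40.5 against 49.6 to 79.9 for 5 gamma delta T cell markers and 577 to 617 against 1253 to 1315 for 4 trNK markers. Among those higher, it was 38.2 to 48.6 against 19.9 to 29.1 for 6 ILC1 markers and 29009 to 35383 against 9916 to 11117 for 10 markers of later trNK stages. At 6 h Itga2 was at most 1.19 RPKM and Cd3e at most 0.0561, so other genes carried the cNK and T cell sums. The part of such cells in the difference of Xcl1 was not tested.

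Ccl4 without IL-21 was at 1395 and 2762 RPKM at 0 h, 2075 and 675 at 6 h, 1554 and 1023 at 24 h, and 7601 and 2416 at 72 h. With IL-21 it was at 3991 and 1227, 4337 and 4323, 1939 and 1403, and 3679 and 3855. At 6 h the libraries with IL-21 lay above those without, by 1.65 on the log2 scale, which was not called (adjusted p = 0.329, edgeR). From 24 to 72 h without IL-21 Ccl4 rose by 2.25 (SE 0.69, adjusted p = 0.0448), a call lost in 9 of 16 fits that left out a library, with values from 1.26 to 2.75.

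Ccl3 without IL-21 was at 262 and 447 RPKM at 0 h, 430 and 57.7 at 6 h, 606 and 147 at 24 h, and 2052 and 403 at 72 h. With IL-21 it was at 955 and 225, 224 and 308, 276 and 131, and 1055 and 614. The arms overlapped at every time, and no change of Ccl3 was called. At 72 h the log2 difference with IL-21 was -0.59 for Ccl3 and -0.41 for Ccl4, beside 7.70 and 8.24 in the inhibitor culture after the same time. The experiments differed in library kit, and the difference between them was not tested.

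**Figure D3:**
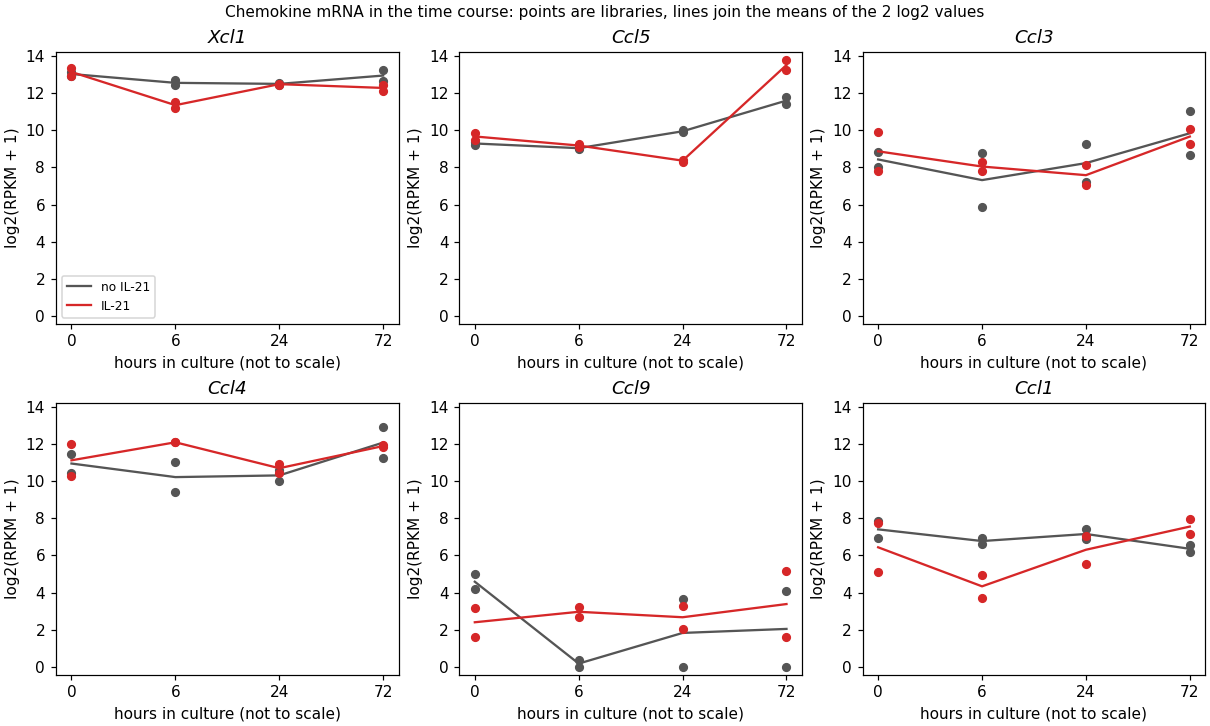
Levels of the 6 chemokine genes at 0, 6, 24 and 72 h of culture with and without IL-21, as log2(RPKM + 1), with 1 point per library and lines through the group means. The Ccl5 arms crossed between 24 h (340 and 315 RPKM with IL-21, 946 and 1013 without) and 72 h (9576 and 13974 against 2720 and 3478), and Xcl1 with IL-21 was lowest at 6 h (2914 and 2301 RPKM).

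Ccl1 without IL-21 was at 230 and 123 RPKM at 0 h, 121 and 97.3 at 6 h, 171 and 117 at 24 h, and 71.0 and 92.5 at 72 h. With IL-21 it was at 216 and 33.7, 12.1 and 30.4, 132 and 46.2, and 251 and 139. The 6 h libraries with IL-21 were the lowest of all 16, and at 72 h the libraries with IL-21 lay above those without. Neither was called, at -2.40 (adjusted p = 0.218, edgeR) and 1.11 (adjusted p = 0.407) on the log2 scale. The 72 h values without IL-21 stand beside 0.858 and 0 RPKM after the same time in the inhibitor culture, and that gap was not tested. Ccl9 ranged from 0 to 35.3 RPKM with wide gaps between replicates (16 and 0.0158 RPKM at 72 h without IL-21), and no difference of it was called.

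Called members stood beside the share of all 3503 genes called as follows. Xcl1 was 1 of 6 at 6 h with IL-21 against without (1.97% of genes), Ccl5 was 1 of 6 at 24 h (1.66%) and 1 of 6 at 72 h (8.08%). Nothing is read from counts between the arms or from any that rest on Ccl5, since different courses of single members were known beforehand. From 24 to 72 h, Ccl4 and Ccl5 were 2 of 6 without IL-21 (14.8%) and Ccl5 was 1 of 6 with it (14.8%), and Xcl1 was 1 of 6 from 0 to 6 h with IL-21 (2.68%). At 0 h, where the label names IL-21 before any culture time, 0 of 6 members were called by edgeR, 0 at an unadjusted p under 0.05 and 0 by DESeq2, beside 0% of all genes (47 at the unadjusted threshold).

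From 0 to 6 h without IL-21, 0 of 6 were called by edgeR, with 1 at an unadjusted p under 0.05 (Ccl9, tested only through its high 0 h libraries) and 0 by DESeq2, beside 0% of genes (36 at the unadjusted threshold). From 6 to 24 h, 0 of 6 were called without IL-21 (0.0856% of genes), with 1 unadjusted and 0 by DESeq2. With IL-21, 0 of 6 were called over the same interval (0.0285%), where 2 passed the unadjusted threshold with a fold above 2 and 1 was called by DESeq2, beside 1.08% of genes by DESeq2. The comparisons with IL-21 at different times share libraries with those between times.

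Of the other lists, Ltb was lower with IL-21 at 6 h by -2.12 and at 24 h by -2.06 on the log2 scale (adjusted p = 0.0146 and 0.021, edgeR). From 24 to 72 h its rise was larger with IL-21, by 2.17 (adjusted p = 0.0395). Bcl3, which passed the filter only through the 6 h libraries with IL-21, was at 0.0424 and 0 RPKM at 72 h without IL-21 and 9.31 and 2.05 with it. No other chemokine ligand of the 32 listed passed the filter on levels in the time course.

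Over the 16 time course libraries, which share the culture and the kit, Ccl3 and Ccl4 followed each other more closely than any other pair of members (Pearson r = 0.79 of log2(RPKM + 1), Spearman rho 0.66), and each was the gene most like the other among 3503. Ccl5 was most like 1810041H14Rik, Tyrobp and AW112010 (r = 0.91 for each), where Tyrobp encodes an adaptor of activating NK receptors. Xcl1 was most like Txndc17 (0.80), Smim4 (0.79) and Gm10132 (0.78). Ccl1 was most like Pycard (0.77), and Ccl9 was most like Pigc (0.67). Ccl5 and Xcl1 had an r of 0.03 with each other.

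The single-cell data cover live CD45+NK1.1+NKp46+ cells of the uterus, deposited as a table labelled virgin and a table labelled gd8.5. Both tables list the same 15175 cells with no gene in common, so they were joined into 1 matrix and treated as 1 pooled sample, with no comparison of virgin with gd8.5 and no test. After filtering, 8909 cells remained, with a median of 2576 UMIs (unique molecules) and 1303 genes. They formed 18 clusters without the use of any chemokine ligand gene, and 4 clusters with 853 cells were left unnamed. The gate should hold NK cells and innate lymphoid cells, yet 1179 cells were macrophage-like, 343 neutrophil and monocyte-like, 300 B-like, 261 T-like and 211 stromal-like. Levels are CPM (summed UMIs scaled to the class total) with 95% Poisson intervals that cover counting error only.

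The members separated by cell class. Ccl5 was highest in the cNK-like cells, a cluster with high Itga2 and S1pr5 that resembles conventional NK cells, where it reached 15716 CPM (15539 to 15895) and was found in 99.0% of 1012 cells. In the 4523 Itga1+ Eomes+ NK cells it was at 934 CPM (920 to 949) in 45.9% of cells, and stromal-like cells, which should lack it, had 572 CPM and 24.6% at median depths of 3829 and 2330 UMIs. With cells thinned to 1000 UMIs the shares were 98.4%, 34.5% and 16.1%. The level of Ccl5 in the Itga1+ Eomes+ NK cells depended on the filter on cells: it was 3374 CPM, beside 292 in stromal-like cells, at the 200 to 2500 UMIs per cell that the study names, and 358 beside 433 with no upper limit on genes.

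Xcl1 and Ccl1 were higher in the Itga1+ Eomes+ NK cells than in cNK-like or stromal-like cells. Xcl1 was at 773 CPM (760 to 786) in the Itga1+ Eomes+ NK cells, found in 50.8% of them (36.2% thinned). It was at 423 in cNK-like and 194 in stromal-like cells (15.6%, 9.27% thinned), at 689 over all cells and at 2022 in the unnamed clusters. The Itga1+ Eomes+ NK cells held 71.3% of all Xcl1 UMIs. They were deeper (median 3829 against 2576 UMIs over all cells), so they hold more of all UMIs than their share of cells. Ccl1 was at 86.7 CPM (82.4 to 91.1) in the Itga1+ Eomes+ NK cells, 5.24 in cNK-like and 1.78 in stromal-like cells, and 62.1 over all cells. It was carried by few cells: 228 of the 4523 cells (5.04%, 2.62% thinned) held its 1548 UMIs, and the top 10 cells held 36.6% of them. The Itga1+ Eomes+ NK cells made up 50.8% of all cells and 88.9% of Ccl1 UMIs.

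Ccl3, Ccl4 and Ccl9 were highest outside the Itga1+ NK cells. Ccl3 was at 1800 CPM in macrophage-like cells (57.5% of cells), 1274 in cNK-like cells (61.3%) and 71.9 in Itga1+ Eomes+ NK cells, below the 135 of stromal-like cells. Ccl4 was at 3337, 2360 and 319 CPM in the same classes, with 355 in stromal-like cells. Over the Itga1+ Eomes+ NK cells as a whole, Ccl3 and Ccl4 were thus not above the level in stromal-like cells with this filter, although some of their clusters were. With 200 to 2500 UMIs per cell the order turned, with 222 CPM of Ccl3 and 771 of Ccl4 in the Itga1+ Eomes+ NK cells against 54.1 (25.9 to 99.4) and 124 (78.8 to 187) in stromal-like cells. In the stromal-like cells 10 cells held 82.9% of the Ccl3 and 72.0% of the Ccl4 UMIs. Ccl9 was at 734 CPM in dendritic-like, 649 in neutrophil and monocyte-like, 478 in macrophage-like and 4.37 in Itga1+ Eomes+ NK cells, with 37.3 in stromal-like cells. Macrophage-like cells, 13.2% of all cells, held 51.8% of Ccl3, 42.4% of Ccl4 and 56.5% of Ccl9 UMIs.

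**Figure D4:**
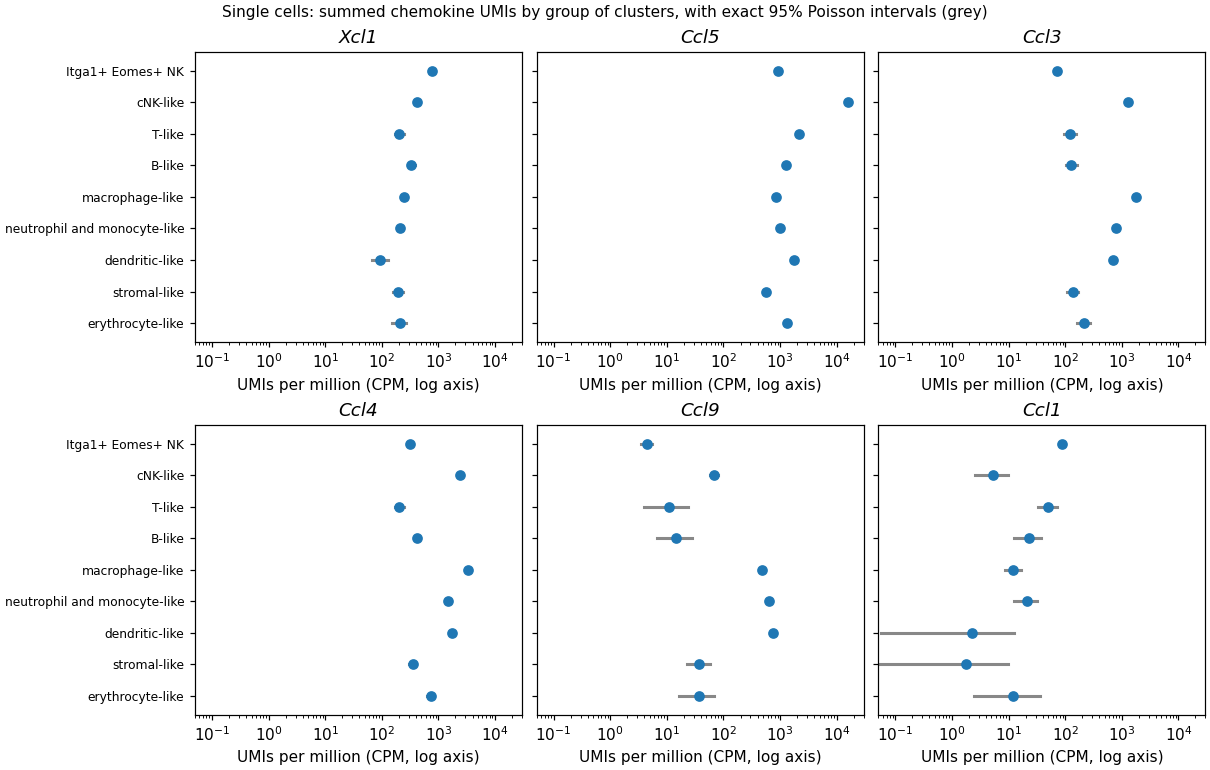
Summed level of each chemokine gene by cell class of the pooled single-cell sample, in CPM on a log scale, with 95% Poisson intervals for counting error. Ccl5 was highest in cNK-like cells (15716 CPM), Xcl1 and Ccl1 were higher in the Itga1+ Eomes+ NK cells (773 and 86.7 CPM) than in cNK-like cells (423 and 5.24 CPM), and Ccl3, Ccl4 and Ccl9 had high levels in macrophage-like cells.

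Within the Itga1+ Eomes+ NK cells, the members differed in level between the 6 clusters. Ordered by Tnfrsf9, from 383 CPM (cluster 4) over 706 (cluster 10), 746 (3), 751 (5, dividing cells) and 952 (1) to 1921 (2), the clusters had Cd55 at 121, 128, 152, 187, 478 and 510 CPM. In that order Ccl5 was at 3220, 2429, 1876, 459, 33.3 and 122 CPM, and Xcl1 was at 1611, 1894, 1458, 871, 29.3 and 192. Ccl4 was at 795, 1043, 414, 282, 27.7 and 81.3 CPM and Ccl3 at 250, 203, 84.7, 67.1, 13.0 and 19.4.

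These 4 genes were thus lowest in the 2 clusters with the most Tnfrsf9 and Cd55, and clusters 4 and 10 were above the stromal-like level for Ccl3 and Ccl4. Ccl1 did not follow the order, at 3.44, 93.3, 92.6, 75.3, 37.9 and 159 CPM. It was highest in cluster 2, whose leading genes were the granzymes Gzmf, Gzmc, Gzmd and Gzme. Few cells carried it: 10 cells held 59.3% of its UMIs in cluster 2, 59.7% in cluster 1 and 90.9% in each of clusters 3 and 10. Thinned to 1000 UMIs, Xcl1 was found in 61.4% of cells of cluster 4 and 10.7% of cluster 2, and Ccl1 in 0.877% and 5.28%. Ccl9 did not follow the order either, at 5.73, 8.06, 6.43, 1.30, 3.56 and 2.91 CPM, all below the stromal-like level. Cluster 4 was led by heat-shock and immediate early genes, with Fos at 2452 CPM and Jun at 3825 CPM, and cluster 10 by Vps37b and Tnfaip3. The part of such stimulation or stress in the levels of Ccl3 and Ccl4 was not tested.

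**Figure D5:**
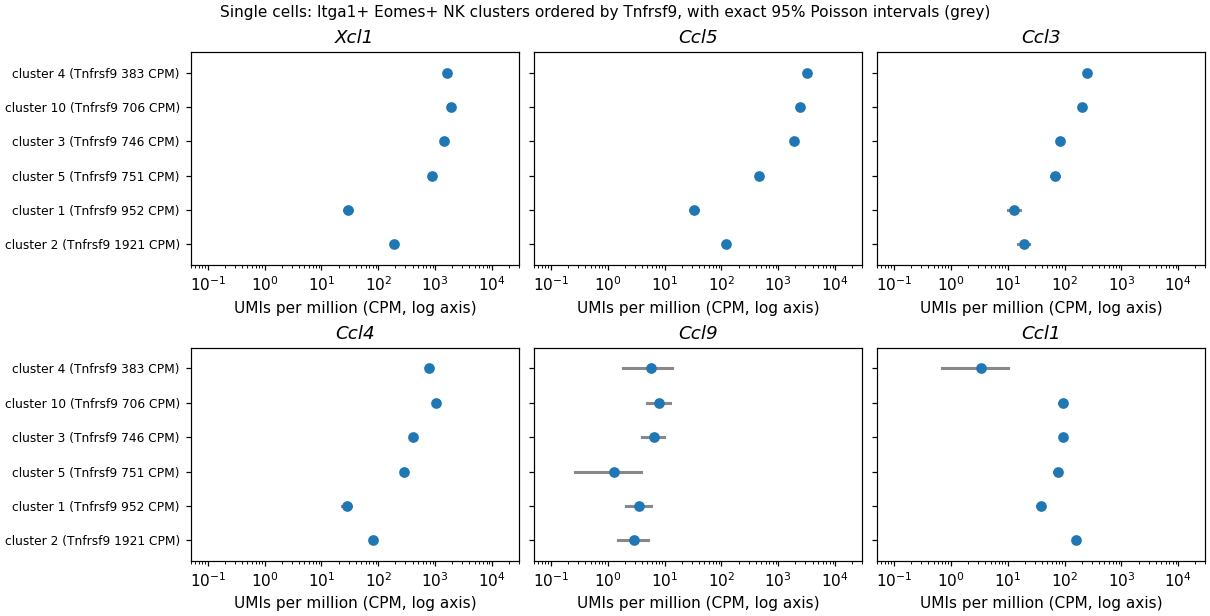
Level of each chemokine gene in the 6 clusters of Itga1+ Eomes+ NK cells, in CPM on a log scale with 95% Poisson intervals, with Tnfrsf9 rising from top to bottom. Ccl5 and Xcl1 were lowest in clusters 1 and 2 (33.3 and 122 CPM, 29.3 and 192 CPM), while Ccl1 was lowest in cluster 4 (3.44 CPM) and highest in cluster 2 (159 CPM), with 37.9 in cluster 1.

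Among the unnamed clusters, the largest (580 cells) carried Cxcr6 at 449 CPM, Ncr1 at 681 CPM and mast cell proteases among its leading genes. It held Xcl1 at 2349 CPM, the highest of the clusters with over 50 cells, and Ccl5 at 3941 CPM, with Ccl4 at 1403 and Ccl1 at 48.7. The bulk gate of the gestation experiment took CXCR6- cells, and whether bulk libraries held cells of this kind was not tested.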

How the data were processed

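The authors deposited raw counts per gene for each bulk library, made with HISAT2 2.1.0 on mm10 and featureCounts (Subread) per the labels, while the study's methods name RSEM. Strandedness and whether multi-mapping reads were counted are not given in the sources used here. The deposited single-cell tables (BD Rhapsody) hold UMI counts per cell. The 6 ATAC samples were not analysed here. The time course used another library kit than the other experiments. The members and gene lists were chosen with earlier results of these data known.

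All 54353 genes shared by the bulk tables entered, holding at least 99.9% of counts. RPKM was computed here from the counts with merged exon lengths of GENCODE vM21. edgeR 4.0.16 (R 4.3.3) fitted the 4 experiments apart, with TMM factors, a quasi-likelihood test per comparison (22 in all, 2 libraries per group) and the filter of 10 RPKM, so that 4504, 4683, 4158 and 3503 genes were tested. Calls needed an adjusted p under 0.05 and a fold above 2. The fits were tested on simulated data. Alternatives were DESeq2 1.42.0, limma-voom (limma 3.58.1), RLE factors, no gene filter, filterByExpr, a replicate block, the compared groups alone and each library left out. Replicate numbers were not used to pair libraries in the main fits. In no experiment did every same-numbered pair of deviations correlate above 0.1, though some pairs did, which leaves pairing unsettled. Named genes were all 6 members, the called genes of the fixed lists and the 3 genes most like each member in the time course.

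Cells with 200 to 2500 genes and under 10% mitochondrial UMIs were clustered with scanpy 1.11.5 (2000 variable genes, 20 components, Leiden resolution 0.8), leaving out chemokine ligands. The study names 200 to 2500 UMIs as its limit, which was run as an alternative. Thresholds for naming clusters from fixed markers were set after the clusters were seen: at least 3 markers, each 2-fold up, and at least 50 cells. The Itga1+ Eomes+ NK cells were not named further, since markers fixed for conventional NK cells were among the leading genes of some of their clusters. Scrublet marked 0 cells, so it had not worked, and doublets stay in.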

Additional observations from a re-analysis of the deposited data

Results flagged for a closer look

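The change of Ccl5 over time differed between the arms of the time course. Its rise from 24 to 72 h was larger with IL-21 than without by 3.57 on the log2 scale, and its rise from 6 to 72 h by 1.78. Both stand out by an interaction term in the edgeR fit, but a different course in the 2 arms was known when the genes were listed, so they are given as a description and not as independent support. In each arm both 72 h libraries lay above both 24 h libraries. The pairs at 72 h were among the widest apart of all pairs, with 1003 and 1045 of 3503 genes over 2-fold apart, and the part of this in the difference was not tested beyond leaving each library out, which gave 2.94 to 3.97 for the rise from 24 h.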

How the results depend on the processing

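The number of members called moved with the settings as follows, beside the values of the report. With DESeq2 it was 3 for gd6.5 against virgin, 2 for gd8.5 against gd6.5, 1 for trNK-D and 5 for trNK-T against trNK-V, 4 for IL-21 against none in the inhibitor culture, 2 for each iSTAT3 comparison, 2 for IL-21 at 6 h, 2 for 6 against 0 h, 1 for 24 against 6 h and 2 for 72 against 24 h with IL-21, and 2 for the difference from 6 to 72 h. With no gene filter it was 6, 1 and 4 in the gestation comparisons (gd6.5 and gd8.5 against virgin, gd8.5 against gd6.5), 3 for trNK-D and 6 for trNK-T against trNK-V, 6 for trNK-T against trNK-D, 4, 3 and 4 in the inhibitor culture, 4 and 2 for IL-21 at 6 and 72 h, 1, 1 and 3 for the successive intervals without IL-21, 3, 3 and 4 for those with it, and 2, 2 and 4 for the differences from 6 to 24, 24 to 72 and 6 to 72 h. With filterByExpr it was 0 for gd6.5 against virgin, iSTAT3 against no IL-21, IL-21 at 6 h, IL-21 at 24 h and the difference from 6 to 72 h, 1 for 72 against 24 h without IL-21, and 5 for trNK-T against trNK-V. With the compared groups alone it was 0 for gd6.5 against virgin, 3 for gd8.5 against gd6.5, 1 for IL-21 and 1 for iSTAT3 against IL-21 in culture, 3 for IL-21 at 6 h, 0 at 72 h, 1 for 24 against 6 h and 1 for 72 against 24 h without IL-21, and 3 for 24 against 6 h with IL-21. RLE factors gave 0 for the difference from 6 to 72 h and limma-voom gave 0 for iSTAT3 against no IL-21 and 5 for trNK-T against trNK-V. A replicate block gave 0 for gd6.5 against virgin, 0 for iSTAT3 against no IL-21 and 5 for trNK-T against trNK-V. Whether replicate numbers pair the libraries is not settled (1 of 3, 2 of 3, 1 of 3 and 11 of 28 pairs correlated above 0.1 in the 4 experiments). Over the comparisons, the share of all genes called was 0 to 23% with DESeq2, 0 to 21.1% with limma-voom, 0.0114 to 7.71% with no gene filter, 0 to 7.68% with filterByExpr, 0 to 22.5% with the compared groups alone, 0 to 21.4% with RLE factors and 0 to 22.4% with the block, the DESeq2 share being 10.3% for gd6.5 against virgin and 23% for trNK-T against trNK-V. The cause of these moves was not tested.

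Leaving out each library in turn gave 0 to 4, 0 to 3 and 0 to 3 members in the gestation comparisons, 0, 1 to 5 and 0 to 1 in trNK-D against trNK-V, trNK-T against trNK-V and trNK-T against trNK-D, and 0 to 1 in each comparison of the inhibitor culture. In the time course it gave 0, 0 to 1, 0 to 1 and 1 for IL-21 at 0, 6, 24 and 72 h, 0, 0 and 1 to 2 for the intervals without IL-21, 0 to 2, 0 and 1 with IL-21, and 0, 1 and 0 to 2 for the differences from 6 to 24, 24 to 72 and 6 to 72 h. Where this left a group with 1 library, its spread was taken from the other groups. Among single genes, 501 of the values with a library left out kept direction and call, 47 lost the call, 19 gained one and 1 reversed: Ccl1 at gd6.5 against virgin ranged from -8.69 to 7.57 on the log2 scale, the latter without virgin replicate 2.

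In the single cells, with 200 to 2500 UMIs per cell the CPM of Ccl1 and Xcl1 in Itga1+ Eomes+ NK cells was 66.8 and 1424, that of Ccl5 in cNK-like cells 16545, and those of Ccl3, Ccl4 and Ccl9 in macrophage-like cells 1629, 2920 and 416. In the Itga1+ Eomes+ NK cells Ccl3, Ccl4 and Ccl5 were then 222, 771 and 3374 CPM, and 35.9, 158 and 358 with no upper limit on genes. With no upper limit the values first listed were 95.6, 461, 15371, 1385, 2621 and 448. At resolution 0.4 Ccl3, Ccl4 and Ccl9 were 1568, 2990 and 538, and with 3000 variable genes Xcl1, Ccl5 and Ccl9 were 882, 15958 and 569. The common biological coefficient of variation of the main fits was 0.248 to 0.414 with 2 libraries a group.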

Other observations

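Of the other cell classes in the single-cell sample, the 261 T-like cells held Ccl5 at 2171 CPM in 28.4% of cells and Ccl1 at 50.4 CPM in 2.68%, where 7 cells carried all 28 Ccl1 UMIs. The 300 B-like cells held Ccl5 at 1250 CPM, 70.2% of it in 10 cells, and Xcl1 at 334 CPM, 79.7% of it in 10 cells.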
